A study of Homo sapiens with 6 samples.

Results

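Convergent opposite-strand peak pairs are places where an m6A peak on the plus strand and one on the minus strand point their downstream ends at each other. The data came from HEK293T, an established line derived from human embryonic kidney and made to express SV40 large T antigen. The labels name the cell line for every sample and no treatment, genotype or time. RNA fragments carrying N6-methyladenosine (m6A) were pulled down with an antibody (IP) and sequenced beside the input RNA in 3 repeats, MeRIP 1, MeRIP 2 and MeRIP 3, which gave 6 samples. The authors deposited 1 peak list per repeat, with a position, a strand and a score for each peak. Nothing in the labels ties the repeats to separate cultures, so the spread between lists may be technical.

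Pairs were chosen from peak positions alone. Same-strand peaks with 1 bp or more in common, from any of the 3 lists, were joined into a region. A plus and a minus region formed a pair when they overlapped or lay at most 1000 bp apart and the plus region had the lower centre. Of 25737 regions, 159 (0.618%) met this rule, 79 on the plus and 80 on the minus strand, and made up 80 pairs. A single region, on the plus strand of chromosome 19 at 7963546 to 7966908, was in 2 pairs. All other member regions were in 1 pair. As the rule used positions, the number of pairs, their distances and their orientation are a description and carry no test.

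Genes that lie tail to tail on opposite strands end towards each other, and their 3' untranslated regions can come close or overlap. m6A, which METTL3 with METTL14 places on most methylated mRNAs, is known to be frequent near stop codons and in 3' untranslated regions, so the ends of such genes are places where methylated RNA of both strands can map to almost the same bases. METTL16, the enzyme this series is about, methylates a separate and smaller set of RNAs. Telling apart RNA from the strands needs libraries that keep the strand. No source used here says whether these did. Genes, exons and sequence at the pairs were not analysed here, so pairs are named by their hg19 positions, counted from 1.

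The first question was whether both strands of a pair were seen in the same repeat. In no list did a peak overlap another peak, on the same or on the opposite strand. The peak numbers in the names rose along each chromosome in every list, with plus and minus peaks in 1 common order. Each list thus gave a stretch of genome 1 peak and 1 strand. Applied to each list alone, the rule found 33 convergent pairs in MeRIP 1, 25 in MeRIP 2 and 30 in MeRIP 3 (29.3 ± 4.04, SD, n = 3 lists), and in none of them did the plus and minus regions overlap. The smallest gap within a list was 62 bp in MeRIP 1, 87 bp in MeRIP 2 and 187 bp in MeRIP 3. After merging, 23 of the 80 pairs overlapped. The overlaps therefore arose between lists, where a peak of 1 repeat on the plus strand met a peak of another repeat on the minus strand.

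Merged pairs ran from deep overlap to the distance limit. The 23 overlapping pairs (28.8%, 95% Wilson interval 20.0 to 39.5%, counting error only) shared 5 to 3220 bp, with a median of 137 bp. Of these, 9 shared under 100 bp and 5 shared 500 bp or more. The other 57 pairs lay 2 to 951 bp apart, with a median of 486 bp. No region was nested in its partner, and no pair had the same start and end on both strands. Divergent pairs, the mirror image in which the minus region has the lower centre, numbered 65, of which 7 overlapped (10.8%, 5.32 to 20.6%). In convergent pairs 17 distances lay within 100 bp of zero, counting overlaps and gaps, against 6 in divergent pairs. Regions of convergent pairs were wider, with a median of 1215 bp against 337.5 bp. The part of width in these contrasts was not tested.

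**Figure D1:**
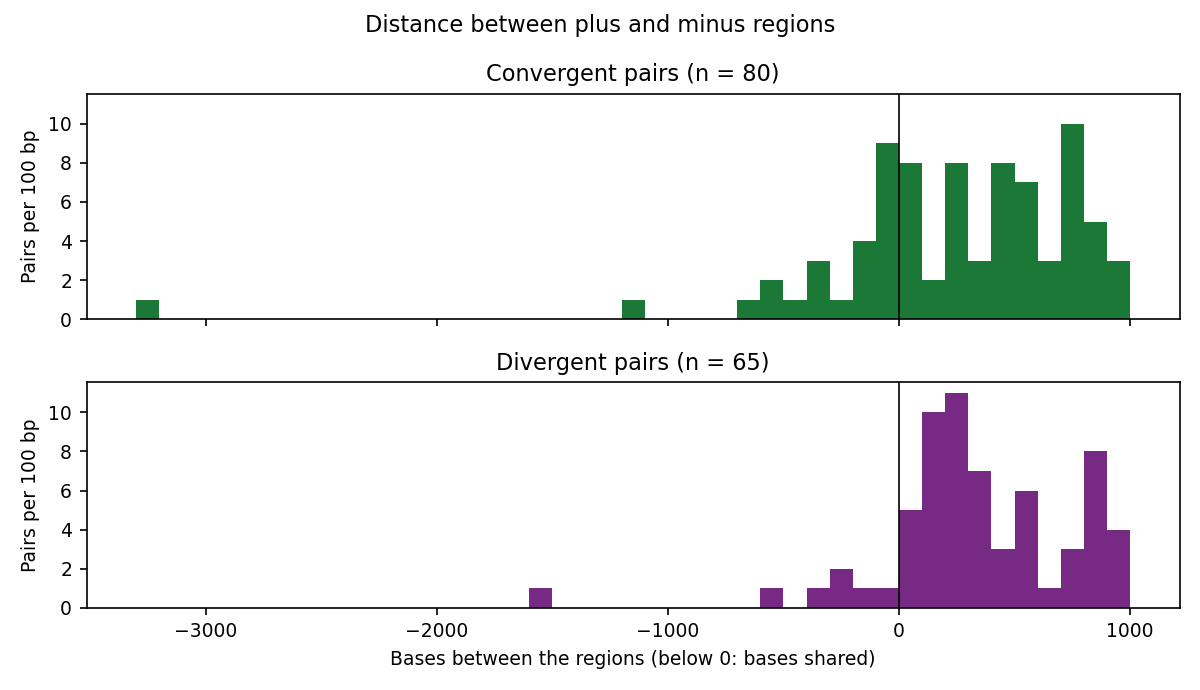
Number of pairs per 100 bp of distance between the plus and the minus region, for the 80 convergent pairs (top) and the 65 divergent pairs (bottom); values below 0 are bases shared. Gaps of convergent pairs are spread up to the distance limit, and 23 of these pairs overlap, while 7 divergent pairs do.

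The distance limit fell among pairs of mixed strength. Just inside it was a pair on chromosome 11, 951 bp apart, with the plus region at 64037534 to 64038133 scoring 526 in MeRIP 1 alone and the minus region at 64039085 to 64039340 scoring 231 in MeRIP 1 and 80.3 in MeRIP 2. The next, on chromosome 17 and 919 bp apart, was weak, with a plus score of 63.4 in MeRIP 3 and minus scores of 60.3 in MeRIP 1 and 50.5 in MeRIP 3. Another, on chromosome 9 and 885 bp apart, is described below. Just outside was a pair on chromosome 12, 1009 bp apart, whose plus region at 49723928 to 49725190 scored 1810.5, 3100 and 1530.5 in MeRIP 1, 2 and 3 and whose minus region at 49726200 to 49727016 scored 3100 in all. Pairs 1017 bp apart on chromosome 17 and 1076 bp apart on chromosome 11 followed. A further 65 convergent pairs lay beyond the limit and up to 2000 bp apart.

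Scores ran from 50 to 3233, and 3100 is a value that many peaks share. It is called the ceiling here, and scores above it were counted as being at it. The authors' deposited score has the form of a p-value's log10 multiplied by minus 10, which no header states. Ratios of scores are therefore ratios of logs of p-values and not folds of methylation. Read depth is unknown from peak lists, so a strand without a listed peak cannot be read as unmethylated.

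Of the 240 combinations of pair and list, 99 had peaks on both strands, 71 on plus alone, 60 on minus alone and 10 on neither. Both strands were present in all 3 lists in 11 pairs (13.8%, 7.85 to 23.0%), in 2 lists in 15 pairs, in 1 list in 36 pairs and in no list in 18 pairs. By distance, none of the 31 pairs that overlapped or lay within 100 bp had both strands in all lists, against 11 of the 49 pairs farther apart (22.4%, 13.0 to 35.9%). The rule used distance, and no list held an overlap or a convergent gap under 62 bp, so the closest merged pairs had to come mostly from different lists. Beside these counts stands the share of all regions with a peak in all 3 lists, which was 59.3%. A pair needs 2 such regions, so the 2 kinds of share are not on the same footing.

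**Figure D2:**
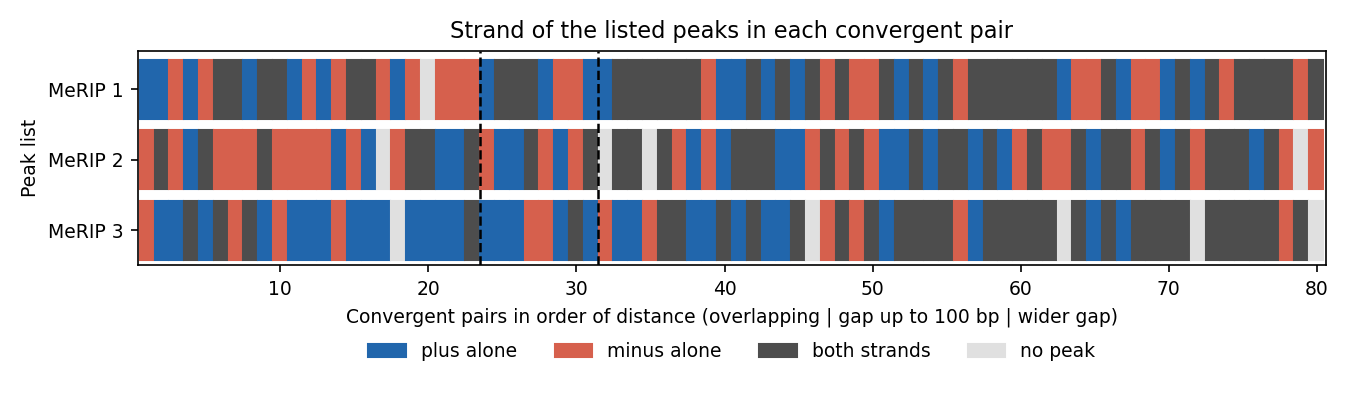
Strand of the listed peaks in each convergent pair (columns, ordered from the deepest overlap to the widest gap) in each of the 3 lists (rows); dashed lines end the 23 overlapping pairs and the 8 pairs with a gap of up to 100 bp. Blue and red cells replace each other between rows on the left, and dark cells with both strands fill more of the right.

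In 22 of the 80 pairs (27.5%, 18.9 to 38.1%) plus stood alone in at least 1 list and minus stood alone in another, an exchange of strands between repeats. The count was 8 of 54 pairs (14.8%) without MeRIP 1, 13 of 63 (20.6%) without MeRIP 2 and 14 of 63 (22.2%) without MeRIP 3. Each of these used 2 lists, which leaves fewer chances for an exchange than 3. With all lists, the exchange was found in 14 of the 23 overlapping pairs and in 3 of the 8 with a gap of up to 100 bp. It was found in 2 of the 21 with gaps over 100 and up to 500 bp and in 3 of the 28 with wider gaps. Since no list holds overlapping peaks, an overlapping pair must owe its overlap to different lists, so the high share among overlapping pairs is partly set by the rule. The exchange was common in divergent pairs too, with 32 of 65 (49.2%, 37.5 to 61.1%), and 26 of those did not overlap. It was thus not particular to the convergent orientation. Of the exchanges in convergent pairs, 17 had a peak in every list and 18 had both strands in none.

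The exchanges were not confined to weak peaks. Over the 57 combinations of exchange pair and list with a lone strand, 29 on plus and 28 on minus, the median score was 1463 and 21 were at the ceiling. Of all regions, 17.3% were at the ceiling in at least 1 list, and of those over 1000 bp 41.5%. These are shares of regions and not of combinations. In 11 of the 80 pairs, plus was at the ceiling in some lists and minus in others, never both in the same list, and 9 of these pairs overlapped or lay within 100 bp. Not all of the 11 were exchanges, as in some of them a strand at the ceiling never stood alone. In 5 of the 22 exchange pairs every score was under 200.

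The longest overlap was on chromosome 19. The plus region at 7963546 to 7966908 was a single peak of MeRIP 1 at the ceiling, with no plus peak in MeRIP 2 or MeRIP 3. The minus region at 7963689 to 7967143 was at the ceiling in MeRIP 2 and MeRIP 3 and without a peak in MeRIP 1. They shared 3220 bp, so nearly the same bases were listed as plus in 1 repeat and as minus in the other 2. The same plus region formed a second pair, 711 bp from a minus region at 7967620 to 7968427 that scored 510.2 in MeRIP 2 alone.

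Other close pairs changed strand at the ceiling as well. On chromosome 11 the plus region at 60617679 to 60618561 scored 3100 in MeRIP 1 and MeRIP 3, and the minus region at 60618398 to 60619469 scored 3100 in MeRIP 2, with 164 bp shared. The same order held on chromosome 2, where the plus region at 242033208 to 242034978 was at the ceiling in MeRIP 1 and MeRIP 3 and the minus region at 242034864 to 242035853 in MeRIP 2. On chromosome 17 the plus region at 79858621 to 79860774 scored 3100 in MeRIP 1 and 3134 in MeRIP 3, and the minus region at 79860777 to 79862820 scored 3100 in MeRIP 2. These last regions did not overlap and lay 2 bp apart. In each of the 3 pairs, MeRIP 2 was the list with minus, and no list had both strands.

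Elsewhere MeRIP 1 or MeRIP 3 was the list that differed. On chromosome 19 the minus region at 39876270 to 39877043 was at the ceiling in MeRIP 1 alone, while the plus region at 39874139 to 39875537, 732 bp away, was at the ceiling in MeRIP 2 and MeRIP 3. On chromosome X the minus region at 47431300 to 47432398 scored 2350.3 in MeRIP 1, and the plus region at 47430722 to 47431320 scored 1118 in MeRIP 2 and 2535 in MeRIP 3. On chromosome 2 the minus region at 220114433 to 220116045 scored 699 in MeRIP 1 and 511 in MeRIP 2, and the plus region at 220113143 to 220115059 scored 2031.5 in MeRIP 3. These pairs, like those of the previous paragraphs, were chosen after their values were seen.

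The strand with the higher score was then followed through the lists, counting a strand without a peak as the weaker. It was the same in all 3 lists in 35 pairs (43.8%, 33.4 to 54.7%), plus in 22 and minus in 13. It switched in 42 pairs. MeRIP 1 was the list that differed in 16 of these, MeRIP 2 in 10 and MeRIP 3 in 7, and in 9 a list had no stronger strand. Among the 23 overlapping pairs, plus stood alone in 7 in MeRIP 1, 5 in MeRIP 2 and 14 in MeRIP 3, and minus alone in 9, 11 and 4. Over all pairs plus was the stronger strand in 43, 36 and 51 pairs of MeRIP 1, 2 and 3, and minus in 35, 38 and 23.

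**Figure D3:**
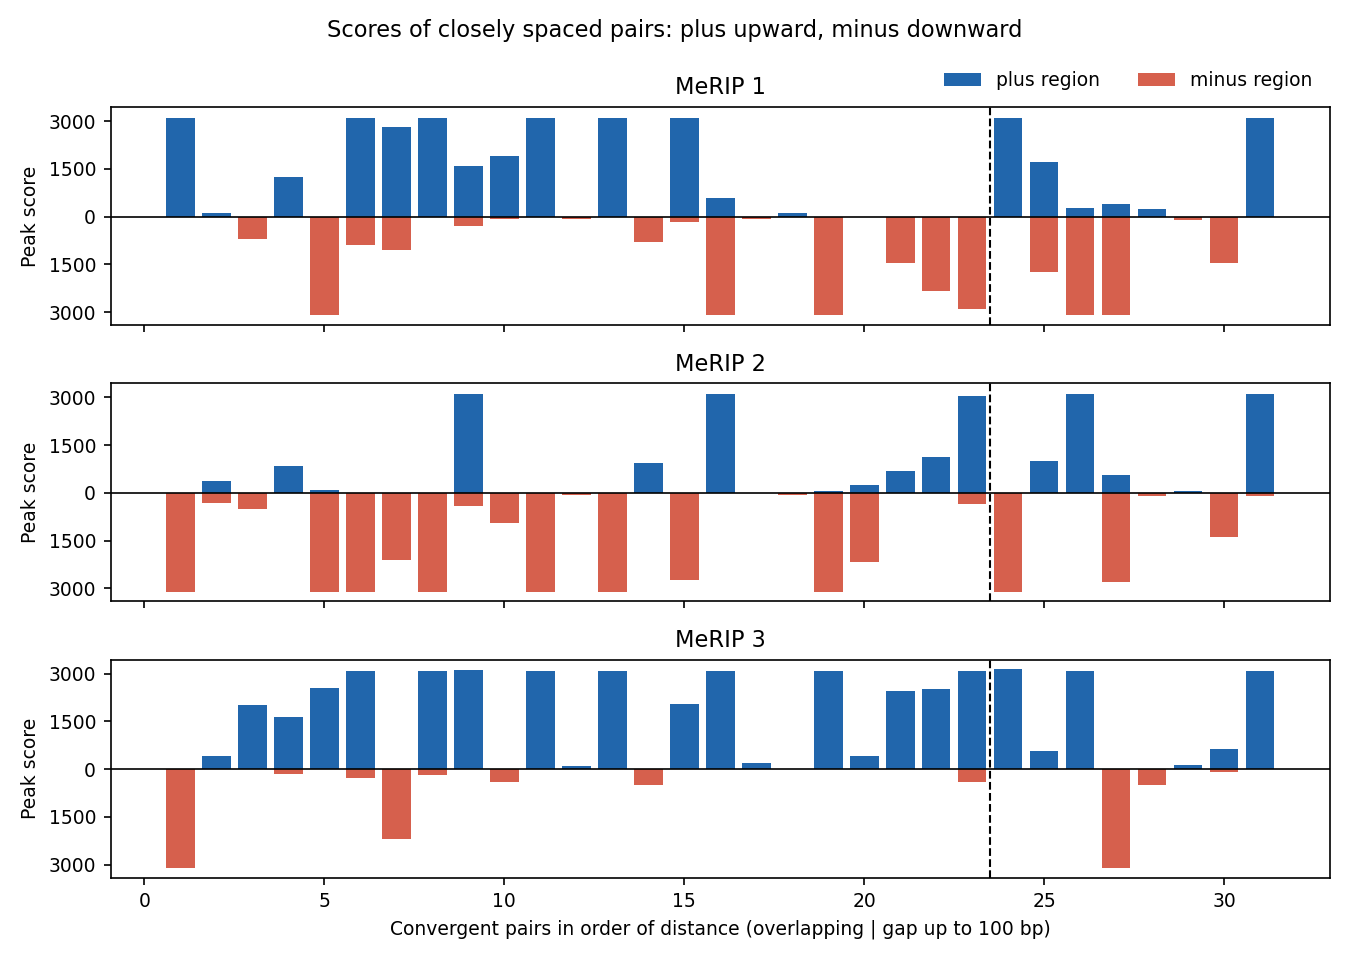
Peak scores of the 31 pairs that overlapped or lay within 100 bp, in the same order in each panel (1 panel per list); bars run up for the plus region and down for the minus region, and a missing bar is a strand without a listed peak. Many columns point up in 1 list and down in another, as in the first column, at 3100 on plus in MeRIP 1 and on minus in MeRIP 2 and MeRIP 3.

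The higher score of a pair was also read on whichever strand held it. Of 33 pairs whose stronger strand switched and that had a peak in every list, 10 had their higher score at the ceiling in all lists. A further 16 were below the ceiling in all lists, and in 8 of these (50%) the higher scores lay within 2-fold over the lists. For all regions below the ceiling in 3 lists that share was 52.4%, and for member regions it was 15 of 35 (42.9%). Those shares follow 1 strand, while the pair value is the higher of 2 strands. With 16 pairs as well, it cannot be said whether switching pairs were as variable as other regions. At the ceiling, differences between lists cannot be seen. Of the pairs with the same stronger strand, 11 of 16 below the ceiling were within 2-fold (68.8%).

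Overlapping pairs were then read without strand, which can only raise the count, since a peak on either strand is enough. None of the 23 had both regions in all 3 lists and 15 had neither. A peak on either strand was present in every list in 20 of the 23, among them 12 of those 15. Over all regions, 16349 combinations of region and list had no peak, and in 69 of them (0.422%) a peak of the opposite strand in that same list lay on the region. Regions of convergent pairs held 52 of these 69, out of 149 combinations without a peak (34.9%), a share the rule favours because it selects close opposite strands. Where the region was at the ceiling in another list, all regions had 22 such cases in 464 combinations (4.74%). Regions of convergent pairs held 21 of the 22, out of 31 combinations (67.7%), again a share the rule favours. The opposite peak was not always that of the convergent partner. A minus member on chromosome 19 at 45910974 to 45912983 was also in a divergent pair. It overlapped that pair's plus region, which was at the ceiling in MeRIP 2 and MeRIP 3, where the member had no peak.

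Strong peaks found in a single list were more frequent among the members than regions were overall. Of 340 regions with a score of 1000 or more in 1 list alone, 20 were in convergent pairs (5.88%, 3.84 to 8.91%), against 0.919% of all 5877 regions found in 1 list alone. Of the 147 at the ceiling in 1 list alone, 9 were members (6.12%, 3.25 to 11.2%). Divergent pairs, with 128 regions, held 14 of the 340 and 7 of the 147, so this was not particular to the convergent orientation. Members were also wider than other regions, and the part of width in this count was not tested.

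Where both strands were listed in the same repeat, the scores of a pair were set side by side. Over 99 such combinations the median of the higher score was 2802 and that of the lower 258.6, which differ by construction. The higher was at the ceiling in 45 and the lower in 4. The scores differed by over 10-fold in 35 and by at most 2-fold in 20, and the lower score was under 200 in 41 (41.4%). The same shares for other neighbouring peaks were not computed, so these counts describe the pairs alone. Plus was the higher in 22 of 36 in MeRIP 1, 16 of 30 in MeRIP 2 and 21 of 33 in MeRIP 3.

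The 11 pairs with both strands in every list are the firmest cases of peaks on both strands. On chromosome 12 the plus region at 49221368 to 49222726 scored 3100, 3100 and 3218 in MeRIP 1, 2 and 3, and the minus region at 49223539 to 49224475 scored 3100 in each. The gap of 812 bp between them was the same to the base in all lists. It was the strongest of the 11, with both strands at the ceiling throughout.

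A pair on chromosome X was nearly balanced. Its plus region at 152241318 to 152243402 scored 2662, 3100 and 2462, and its minus region at 152243996 to 152245479 scored 2429.7, 3100 and 2276. The log2 ratio of plus over minus was 0.08 ± 0.07 (SD, n = 3 lists), with values above the ceiling set to it. A second pair on chromosome X, at 152338780 to 152340864 on plus and 152341458 to 152342941 on minus, had the same widths of 2085 and 1484 bp and the same gap of 593 bp. There plus scored 1497, 3192 and 1454, while minus scored 919.8 in MeRIP 1 and 613 in MeRIP 3 and had no peak in MeRIP 2. Regions of identical size and spacing may be near-identical copies, whose reads cannot be assigned with certainty, so the values of these 2 pairs are uncertain.

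In 6 of the 11 pairs the same strand was stronger in every list. Gaps in this paragraph are those between merged regions. The closest of them by this gap, 223 bp apart, was on chromosome 20. Its plus region at 61471894 to 61472511 scored 2387, 1858 and 2128. Its minus region at 61472735 to 61473449 scored 336, 64.3 and 90.9. In MeRIP 1, 2 and 3 the peaks of this pair stood 549, 587 and 287 bp apart. Its log2 ratio was 4.08 ± 1.09 (SD, n = 3 lists), and the ranges of plus and minus did not overlap. On chromosome 4, 506 bp apart, the plus region at 1980365 to 1983934 was at the ceiling in all lists and the minus region at 1984441 to 1985230 scored 213, 741 and 650.4. Minus was the stronger strand in 1 of the 6, on chromosome 11, where the minus region at 77926336 to 77930461 scored 2085, 3100 and 3100 against 193, 245 and 119 for the plus region at 77924692 to 77925757, a log2 ratio of -3.93 ± 0.68. Pairs on chromosome 19 (log2 ratio 2.75 ± 1.24, gap 635 bp), chromosome 17 (3.70 ± 0.93, gap 741 bp) and chromosome 14 (2.06 ± 0.33, gap 786 bp) were plus-dominated with the plus region at the ceiling in all lists. At the ceiling a ratio is a lower bound in size.

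In the other 3 pairs of this group that were not tied at the ceiling, the order changed between lists. On chromosome 12 the plus region at 109523472 to 109525674 scored 942, 106 and 439.8 and the minus region at 109525993 to 109526317 scored 534, 258 and 455.6. The log2 ratio was -0.17 ± 1.06, so the strands did not differ beyond the spread between lists. On chromosome 11 the plus region at 61113823 to 61115482 scored 236, 468 and 348, and the minus region at 61116288 to 61119024 scored 651, 400.3 and 350.4, a log2 ratio of -0.42 ± 0.91. The largest change was on chromosome 9, where the plus region at 140110724 to 140113813 scored 3100, 3100 and 267 while the minus region at 140114699 to 140115775 stayed at 1549, 1102 and 1322. Its log2 ratio was 1.0, 1.49 and -2.31 in MeRIP 1, 2 and 3. Only 3 of the 11 pairs were below the ceiling in every list on both strands, and in 1 of these 3 the same strand led throughout.

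In a further 42 pairs, 1 region was found in all 3 lists and its partner in fewer. The constant region was plus in 23 and minus in 19. The constant regions had a median lowest score of 847.8, and their partners reached a median highest score of 408. In 18 of the 42 the partner stayed under 200. The split took as partner the region missing from a list. The same values for other regions found in fewer lists were not computed, so these describe the pairs alone. An example was a plus region on chromosome 17 at 18225931 to 18231240, at the ceiling in all lists, beside a minus region at 18231505 to 18232233 that scored 84.9 in MeRIP 3 alone. On chromosome 10 the plus region at 105205135 to 105206019 scored 2437, 2099 and 1303 beside a minus region at 105206609 to 105207325 with 55.9 in MeRIP 1 alone.

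Partners of constant regions were at the ceiling in 6 of the 42. On chromosome 1 the plus region at 9786967 to 9789172 scored 570.03 in MeRIP 1 and 3100 in MeRIP 2 and MeRIP 3, while the minus region at 9789079 to 9790763 scored 3100 in MeRIP 1 alone. On chromosome 16 the plus region at 30002368 to 30003582 scored 259, 3100 and 3100 and the minus region at 30003650 to 30004691, 67 bp away, scored 3100 in MeRIP 1 alone. In both of these examples, plus was low in the list where minus was present, but this did not hold in all 6. On chromosome 19 the plus region at 45909920 to 45910493 scored 968, 623 and 208.5. It was highest in MeRIP 1, the only list where the minus region at 45910974 to 45912983 had a peak, at 3100. In the remaining 27 pairs neither region was in all lists, although 17 of these pairs had a peak on either strand in every list.

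The edges of lone and of jointly listed peaks were compared in the overlapping pairs. As these pairs were chosen for an overlap and no list holds overlapping peaks, peaks listed together had to stand apart, and what follows describes the sizes. In the 23 overlapping pairs, a lone strand was listed in 50 combinations of pair and list, and in all 50 its peak ran into the region of the partner, by a median of 137 bp. Both strands were listed in 16 combinations, in 13 pairs, and there the peaks stood 113 to 2349 bp apart, with a median of 654.5 bp. On chromosome 17 the minus peak began at 61773249 in MeRIP 2, where it was alone, but at 61775068 in MeRIP 1 and 61774166 in MeRIP 3, where a plus peak ended at 61773670. On chromosome 22 the minus peak spanned 3682 bp at the ceiling in MeRIP 2, where it was alone, and 956 bp with a score of 171.5 in MeRIP 3, where the plus peak of 2520 bp was at the ceiling. On chromosome 11 the plus peak that started at 111953189 ended at 111955874 in MeRIP 3, where it was alone. It ended at 111955110 in MeRIP 1 and at 111954464 in MeRIP 2, where a minus peak was present.

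Over all members with 1 peak in both lists of a comparison, the outer edge, at the upstream end, was the same to the base in 95.9%, 90.9% and 92.2% of 74, 77 and 77 regions for MeRIP 1 and 2, 1 and 3, and 2 and 3. The inner edge, which faces the partner, was the same in 58.1%, 59.7% and 63.6%. Where the inner edge moved, its median shift was 159, 210 and 210.5 bp. Regions that shared a single edge shared the upstream one in 92 ± 4.07% (SD over the 3 comparisons of lists, which share lists), with 29, 27 and 25 regions against 1, 3 and 3 for the downstream edge. For regions outside the pairs the share was 81.4 ± 0.645%. Over 1000 bp the downstream edge also moved alone in many regions outside, 2277, 2285 and 2249 of 4857, 4896 and 4828. In members of that width, where it is the inner edge, it did so in 24, 21 and 21 of 51, 55 and 54. A downstream edge that moves was thus not particular to edges that face a partner. Both edges were identical in 57.4 ± 2.04% of members, and in 74.7% of all regions.

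The share of upstream edges depended on width. Among regions over 1000 bp the upstream share was 90.3 ± 4.91% in members and 91.9 ± 0.281% outside, closer than the spread between comparisons. Over 300 and up to 1000 bp it was 100% in members, from 5, 5 and 4 regions with none on the other side, against 69.2 ± 0.767% outside. Divergent pairs, whose upstream edges face each other, had 15.3 ± 16.8% at this width and 36.9 ± 5.07% over all widths. Over 1000 bp the divergent share was 75.6 ± 7.70%, from 4, 4 and 4 regions against 2, 1 and 1, so there the facing edge was the one kept more often. At up to 300 bp it was 22.2% in divergent pairs and 25.4% outside, and 58 of the 128 divergent regions were of that width. A region ends at its outermost peak edge over the lists, so a facing edge that moves brings regions nearer, and the rule favours such regions.

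**Figure D4:**
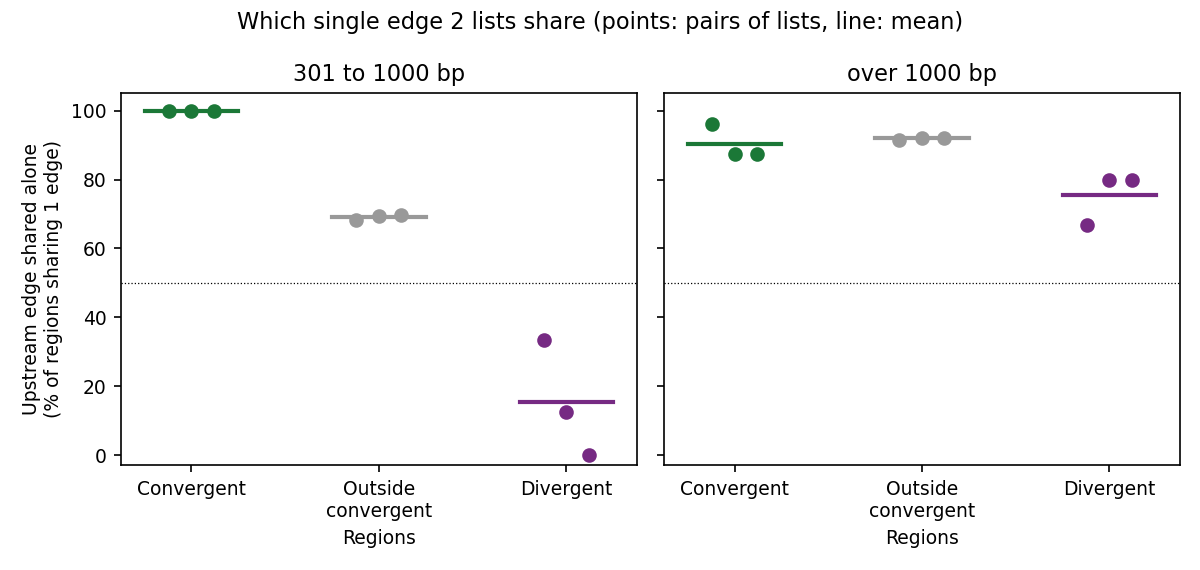
Share of regions with a single identical edge in 2 lists whose shared edge is the upstream one, at widths over 300 and up to 1000 bp (left) and over 1000 bp (right); points are the 3 comparisons of lists and lines their mean. At up to 1000 bp convergent members lie at 100%, regions outside near 69.2% and divergent regions at a mean of 15.3%, while over 1000 bp convergent members and the regions outside are close.

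Gaps between the strands were stable in some pairs. In the 11 pairs with both strands in every list, the gap was the same to the base in 4 and within 100 bp in 7. The widest range was 1529 bp, on chromosome 11 at 61113823 to 61119024, where the gap was 805 bp in MeRIP 1, 2312 bp in MeRIP 2 and 2334 bp in MeRIP 3. In 96 of the 99 combinations with both strands (97.0%), the peak numbers of the strands were consecutive. For all neighbouring peaks within 1000 bp of each other in a list that share was 99.7%, so the pairs did not stand out.

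Members were wider than most regions. Their median width was 1215 bp, from 21 to 5310 bp, against 364 bp for all regions and 337.5 bp for regions of divergent pairs. Whether the rule favours width was not tested. Of the members, 96 of 159 (60.4%) were over 1000 bp, against 23.1% of all regions. Regions of divergent pairs, with the same distance limit, had 12.5%. Plus members had a median of 1333 bp and minus members of 1140 bp.

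Members were found in all 3 lists less often than regions of like width. The share was 64 of 159 (40.3%, 32.9 to 48.0%), against 59.3% of all regions. Among regions over 1000 bp it was 47.9% of 96 members (38.2 to 57.8%) against 81.5% of all regions, and over 300 and up to 1000 bp 30.0% of 60 members (19.9 to 42.5%) against 63.3%. Overlapping pairs were lowest, with 8 of 46 regions (17.4%, 9.09 to 30.7%), and members that did not overlap a partner reached 49.6% of 113 (40.5 to 58.6%). The low share in overlapping pairs is partly set by the rule, as no list holds overlapping peaks. Regions of divergent pairs had 23.4% of 128 (16.9 to 31.5%). No test over regions was run, and intervals cover counting error only.

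**Figure D5:**
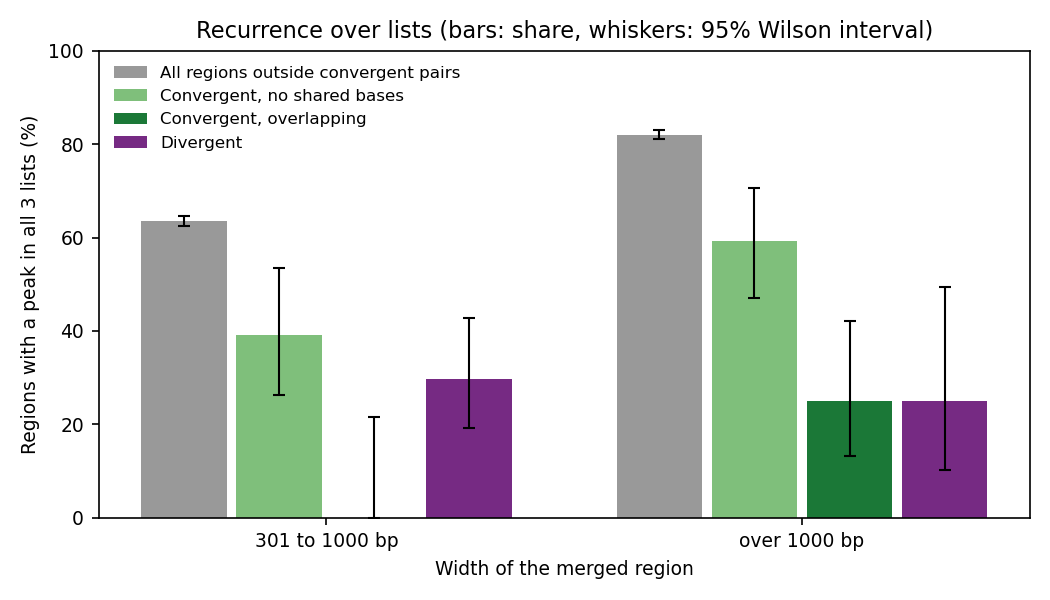
Share of regions with a peak in all 3 lists at widths over 300 and up to 1000 bp and over 1000 bp; whiskers are 95% Wilson intervals. Regions outside convergent pairs are highest in both width classes, at 63.6% and 82.0%, and overlapping convergent regions reach 0 of 14 and 25% of 32.

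Over all widths, scores of members were higher than those of other regions, but not at like width. The median score of members was 1096 in MeRIP 1, 1058 in MeRIP 2 and 1034 in MeRIP 3, against 421, 422 and 444 for the regions outside. The difference of median log2 scores was 1.31 ± 0.08 (SD, n = 3 lists), higher in 3 of 3 lists, with an exact two-sided sign-flip permutation p of 0.25, the smallest that 3 lists allow. At widths of up to 1000 bp it was 0.82 ± 0.13, a class in which 3 of 63 members but 11577 of 19717 other regions were at most 300 bp wide. Over 300 and up to 1000 bp the medians were close, at 529.98, 551 and 557 in members and 529, 511 and 541 outside. Over 1000 bp it was -0.15 ± 0.13, lower in 3 of 3 lists. Of the members, 51 were at the ceiling in at least 1 list (32.1%), against 17.3% of all regions, and 13 were at the ceiling in all lists. At like width the shares were close, with 43.8% of members and 41.5% of all regions over 1000 bp, and 15% and 18% over 300 and up to 1000 bp.

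The pairs lay on 19 of 24 chromosomes, with none on chromosomes 7, 13, 18, 21 and Y. Chromosome 17 had 13 pairs and chromosome 19 had 12, which is 16.2% and 15.0% of the pairs, against 6.28% and 8.23% of all regions. Of the 65 divergent pairs, 6 lay on chromosome 17 and 17 on chromosome 19, so the high share on chromosome 19 was not particular to the convergent orientation. On chromosome 17, 1.61% of regions were members (1.10 to 2.35%), and on chromosome 19 1.09% (0.725 to 1.62%). On chromosome 11, with 8 pairs, it was 1.23% (0.759 to 1.99%). Chromosome 1 had 7 pairs and 0.552% (0.329 to 0.924%), near the 0.618% of all regions, and chromosome 7 had 0 of 1263 regions, with an upper Wilson bound of 0.303%.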

How the data were processed

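MeRIP-seq libraries of 3 repeats (IP and input each) were sequenced as paired-end reads after removal of ribosomal RNA, per the labels' protocols. cutadapt 1.9.3, HISAT2 2.0.4 and hg19 are named in the submitters' processing notes. The score of each peak was deposited by the authors, 1 list per repeat with IP and input together; peak names carry the word MACS, and no source used here gives its settings or the filter on peaks. Lists held 19851 to 21286 peaks, with peak numbers up to 96698. Peaks were merged and paired as described above. The highest score per region and list was used, set to at most 3100 before log2. Shares carry 95% Wilson intervals. Pairing was tested on simulated data. The software was Matplotlib 3.10.9, SciPy 1.17.1, pandas 2.3.3 and NumPy 2.4.6 under Python 3.11.15. Members, tests and named pairs were chosen with earlier results of these data known. Pairs were named by longest overlap, shortest gap, strand ratio, change of strand, place at the distance limit and shared regions, with pairs on chromosome 8 left unnamed; no pair met the rule of overlap with both regions in all lists. The comparison of exchanges between strands was added after the values were seen. Genes, gene lists and sequence were not analysed here.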

Additional observations from a re-analysis of the deposited data

How the results depend on the processing

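No paired analysis was possible because a list holds peaks of IP over input within 1 repeat, and no separate values of the libraries, so a replicate block could not be fitted. The number of pairs was 52, 145 and 18 with a limit of 500 bp, a limit of 2000 bp and peaks of at most 1000 bp, and 54 to 63 without 1 repeat, against 80. The share with both regions in every list was 3.85% and 24.1% with the 2 limits and 23.8 to 28.6% without 1 repeat, where only 2 lists are required. The overlapping share was 44.2% and 15.9% with the 2 limits, since wider limits add pairs that do not overlap, and 22.2 to 25.9% without 1 repeat. The same stronger strand in every list, among pairs below the ceiling on both strands, was found in 1 of 3 (33.3%), 83.3% at 2000 bp, 0% of 2 with scores of at least 100, 100% of 1 with peaks of at most 1000 bp and 50 to 100% without 1 repeat; counts this small give no direction. The exchange share was tried under alternatives added once the values had been seen, and was 50% with peaks of at most 1000 bp and 14.8 to 22.2% without 1 repeat; the lowest, 14.8%, was without MeRIP 1, and the cause was not tested. The upstream share was 100% at up to 1000 bp and 96.2 to 100% without 1 repeat. The score difference reversed to -0.15 over 1000 bp, a class chosen after seeing the data, and stayed positive in the 9 other alternatives. Depth is unknown, so a missing peak may be one just under the lowest score.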
